A study of Mus musculus with 12 samples.

Results

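Growth hormone acts on hepatocytes in a sex-dependent rhythm, and a set of liver genes follows it through the transcription factor STAT5. The 10 genes described here are taken from that set by name: Hsd3b5, Elovl3, Serpina1e, Cyp7b1, Cyp4a12a and Cyp2d9, which are higher in male mouse liver; Cyp2b9 and Cyp2b13, which are higher in female liver; Hao2, a liver hydroxyacid oxidase; and Socs2, a feedback inhibitor that STAT5 induces. They are 10 of the 16116 genes in the deposited table, and 9 of them are among the 10681 genes that reached a log2 level of 1 in at least 2 libraries and were tested. Cyp2b13 did not reach it.

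The study measured sorted mouse hepatocytes in which the Hippo pathway effector Yap was activated in 2 ways, each with 1 or both alleles of the transcription factor Sox9 floxed. In the YAP experiment the control was wild type mice given AAV2/8-TBG-GFP, and the activated groups were Sox9 fl/+ or Sox9 fl/fl mice given AAV2/8-TBG-Cre together with AAV2/8-TBG-YAP S127A-P2A-GFP, a YAP mutant that escapes Hippo inhibition; cells were sorted 3 weeks after injection. In the Mst experiment every mouse carried Mst1 fl/fl, Mst2 fl/fl and ROSA26-lsl-TdTomato. Its control received AAV2/8-TBG-GFP, and its activated groups, which in addition were Sox9 fl/+ or Sox9 fl/fl, received AAV2/8-TBG-Cre, which deletes the upstream kinases Mst1 and Mst2; cells were sorted 4 weeks after injection. All mice were injected at 3 weeks of age, the TBG promoter restricts the viral genes to hepatocytes, and the sorted cells were negative for Epcam and CD45. The activated groups are called Sox9-heterozygous and Sox9-null below, and each of the 6 groups has 2 libraries. No group had Yap activation with both Sox9 alleles intact, and neither control received Cre, so that against a control the effects of activation, Cre and Sox9 allele loss cannot be told apart. Whether the 2 libraries of a group are from different mice is not in the labels; the p-values therefore rest on library-to-library spread, which may be technical.

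In male rodents the pituitary releases growth hormone in pulses, and in females more evenly. The hormone binds its receptor, the receptor-associated kinase Jak2 phosphorylates STAT5, and STAT5b drives most of the male-biased programme of the liver while the repressors Bcl6 and Cux2 keep the genes of the other sex low. Socs2 and Cish are induced by STAT5 and damp the receptor, and Igf1 is the endocrine output of the same signal.

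Of the 10 genes, 6 could be matched to a RefSeq promoter window (Hsd3b5, Serpina1e, Cyp2d9, Cyp2b9, Cyp2b13 and Hao2). The windows of the paired female-biased genes, the 250 bases upstream of the start on the plus strand of GRCm38.p6, are shown because both genes had their highest deposited level in the same library although the 2 genes are separate loci. Capitals mark the bases that differ.
Cyp2b9 (chr7:26173159-26173408): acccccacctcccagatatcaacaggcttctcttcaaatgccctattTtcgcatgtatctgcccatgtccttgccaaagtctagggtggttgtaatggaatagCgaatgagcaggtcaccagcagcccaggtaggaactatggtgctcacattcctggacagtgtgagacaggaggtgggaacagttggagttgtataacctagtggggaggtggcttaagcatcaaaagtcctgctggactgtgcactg
Cyp2b13 (chr7:26061245-26061494): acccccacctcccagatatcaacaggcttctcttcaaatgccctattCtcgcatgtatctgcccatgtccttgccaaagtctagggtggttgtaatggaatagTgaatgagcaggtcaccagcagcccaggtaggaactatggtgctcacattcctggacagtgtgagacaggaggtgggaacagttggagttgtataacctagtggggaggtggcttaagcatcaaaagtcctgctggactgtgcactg
The windows are 99.2% identical and differ at 2 bases, T48C and C104T, counted from 1 at the 5′ end of the window with the Cyp2b9 base first. For comparison, the windows of Hsd3b5 and Hao2 are 28.8% identical without gaps. The STAT5 consensus TTCNNNGAA, which is its own reverse complement, was found in 0 of the 6 windows, against 7.02% of 32851 promoter windows of the same length. This says only that these letters are not in these 250 bases. The windows follow RefSeq starts, and they are not all at the ends of the GENCODE gene spans given below: those of Serpina1e and Cyp2d9 lie inside the span, and that of Hsd3b5 lies beyond it. Reads of near-identical genes may be shared between amplicons, so the levels of Cyp2b9 and Cyp2b13, of Serpina1e among the Serpina1 copies, of Cyp4a12a beside Cyp4a12b, and of Cyp2d9 and Hsd3b5 within their families are uncertain to that extent.

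Depth is unknown, since the table holds log2 CPM (counts scaled to the library total) and no counts. The linear values sum to between 879620 and 1011690 in a library. The target Sox9 had a log2 CPM of 1.41 and 1.29 in the Mst Sox9-null libraries against 6.47 and 6.0 in the Mst Sox9-heterozygous libraries, and 2.28 and 2.62 against 4.41 and 5.28 in the YAP experiment. Yap1 rose in the YAP Sox9-null group (7.45 and 8.01 against 6.64 and 6.44; log2 change 1.19 ± 0.24 (SE), adjusted p = 0.00556, limma). Of 8 hepatocyte markers 7 were in the table, and their summed linear level ranged from 50850 to 89153 CPM over the 12 libraries. The highest sum was that of YAP Sox9-null library 1, and the lowest that of library 2 of the same group. The Y-linked Ddx3y was between 4.46 and 5.76 in every library and Xist between 0.99 and 1.52. Endothelial markers moved with activation: all 8 had positive changes in each of the 4 comparisons with a control, and their summed level was 20.6 to 43.8 CPM in the 4 control libraries against 83.5 to 286 CPM in the 8 activated libraries. Macrophage markers summed to 14.6 to 39.6 CPM in the controls and 24.9 to 122 CPM in the activated libraries. In these sorted bulk cells a change in the number of cells of a type and a change in RNA per cell cannot be told apart, and the part of these markers in the results below was not tested. The Mst libraries are not independent of each other. Within each gene the deviations of same-numbered Mst libraries from their group means averaged about 0 across the 3 groups (median absolute mean 0.00255). The 2 control means were equal (within 0.05 in 98.9% of genes).

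**Figure D1:**
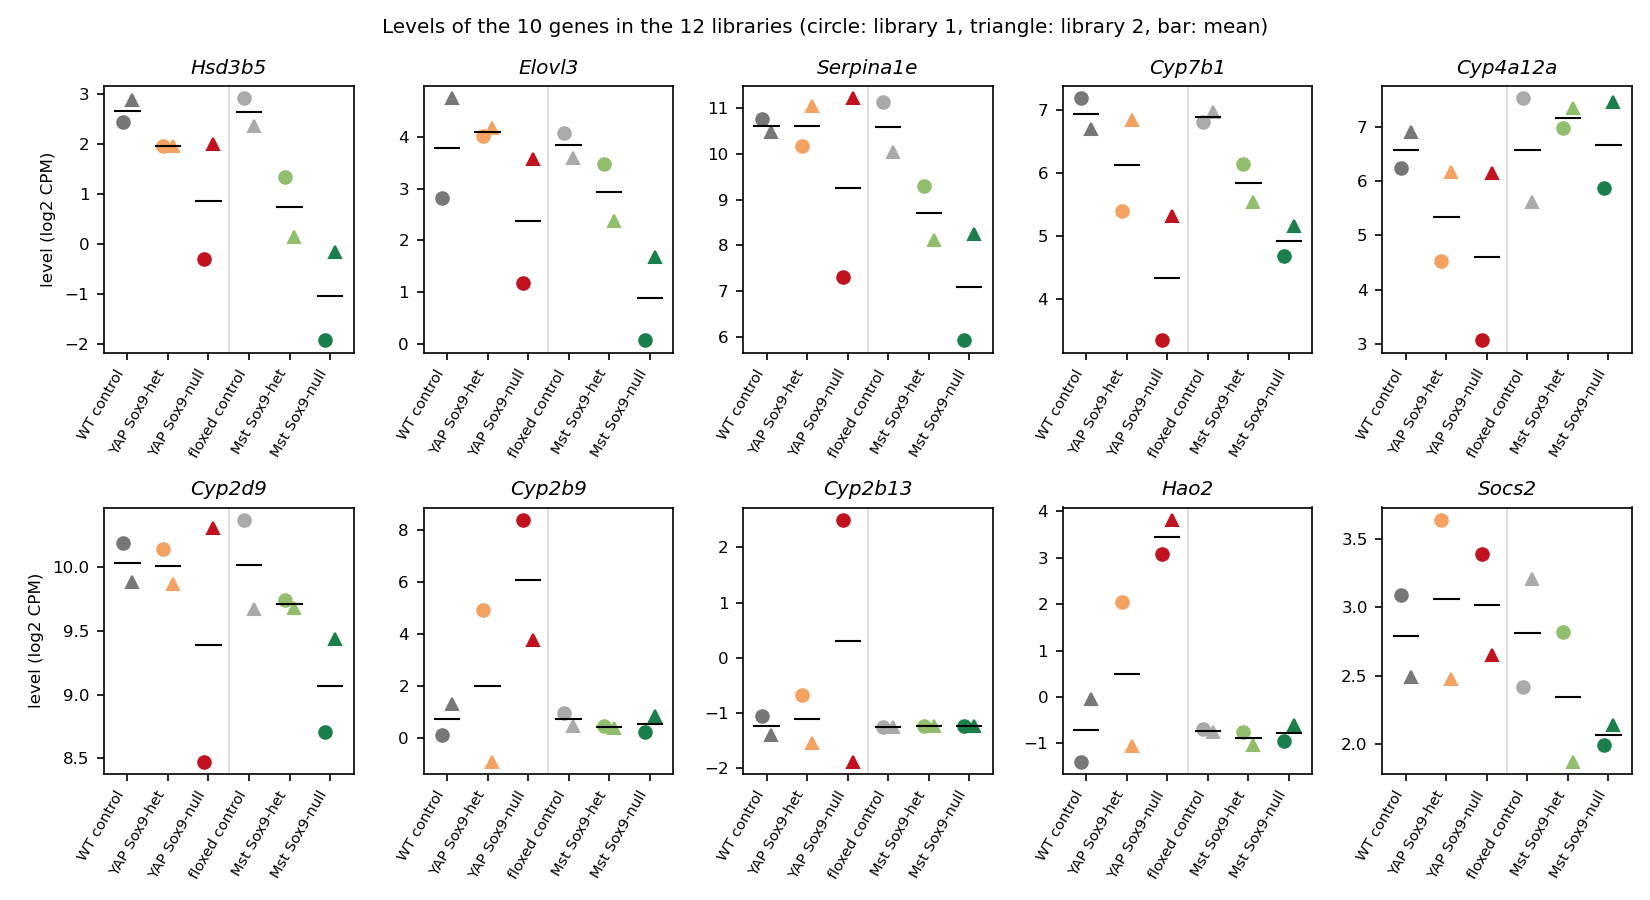
Level of each of the 10 genes (y axis, log2 CPM) in the 6 groups (x axis; circle for library 1, triangle for library 2, bar for the group mean). The group means of Hsd3b5, Elovl3 and Serpina1e are lowest in the Mst Sox9-null group, while Cyp2b9, Cyp2b13 and Hao2 are high only in YAP-activated libraries.

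In the Mst experiment, 4 of the 6 male-biased genes fell in Sox9-null hepatocytes against the floxed control, namely Hsd3b5, Elovl3, Serpina1e and Cyp7b1. These are 4 of the 9 tested members, where 0.88% of all tested genes were called lower, 6.88% higher and 7.76% in either direction. Hsd3b5 (chr3:98618634-98630252, minus strand, GRCm38), a male-specific enzyme of the 3-beta-hydroxysteroid dehydrogenase family that acts in steroid metabolism, had log2 levels of 2.93 and 2.38 in the control, 1.34 and 0.14 in the heterozygous group, and −1.93 and −0.16 in the null group. Both null libraries lay below both controls and the heterozygous libraries lay between. It fell by 3.70 ± 0.68 on the log2 scale (adjusted p = 0.00283, limma) with a 95% interval of −5.14 to −2.25. No fold is given, since the control level is a few CPM and the null level is near the bottom of the table. This was the one male-biased change that stayed past the threshold when any of the 12 libraries was left out (12 of 12, −4.58 to −2.81, highest adjusted p = 0.0402).

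Elovl3 (chr19:46131897-46135694, plus strand), which elongates very long chain fatty acids, had levels of 4.09 and 3.59 in the control, 3.48 and 2.38 in the heterozygous group, and 0.07 and 1.69 in the null group. It fell by 2.96 ± 0.72 (adjusted p = 0.0173), with no overlap of the null and control libraries. Serpina1e (chr12:103946931-103958975, minus strand), a gene of the alpha-1-antitrypsin family, had levels of 11.14 and 10.05, then 9.30 and 8.12, then 5.92 and 8.25, and fell by 3.51 ± 0.92 (adjusted p = 0.027), 11.4-fold lower. Cyp7b1 (chr3:18071950-18243338, minus strand), the oxysterol 7-alpha-hydroxylase of bile acid synthesis, had levels of 6.82 and 6.98, 6.15 and 5.54, and 4.68 and 5.16, and fell by 1.97 ± 0.51 (adjusted p = 0.0253). For these 3 genes the control and null libraries did not overlap either (12.8% of all tested genes had both null libraries below both controls), but each call was lost when 1 library was left out: Elovl3 without control library 1 (adjusted p = 0.111) or null library 1 (0.194), Serpina1e without the same libraries (0.185 and 0.291) and Cyp7b1 without control library 1 (0.0894), control library 2 (0.122) or null library 1 (0.170). All 3 calls were also lost without the filter on low values, when more genes are tested (adjusted p = 0.127 for Elovl3, 0.175 for Serpina1e and 0.151 for Cyp7b1).

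The other male-biased genes did not pass. Cyp2d9 (chr15:82433437-82456845, plus strand), a steroid hydroxylase of the Cyp2d family, had levels of 10.37 and 9.67 in the control, 9.74 and 9.68 in the heterozygous group and 8.70 and 9.44 in the null group (log2 change −0.95 ± 0.47, adjusted p = 0.281). Cyp4a12a (chr4:115299046-115332815, plus strand), a fatty acid omega-hydroxylase, had levels of 7.53 and 5.62, 6.97 and 7.35, and 5.87 and 7.46. Its control libraries differed by more than its groups, and the change was 0.09 ± 0.81 (adjusted p = 0.978, 95% interval −1.63 to 1.81). Without control library 2 it was −0.87. In the Mst Sox9-heterozygous group none of the 9 genes passed (4.25% of all tested genes did, in either direction). The heterozygous changes were −1.92 ± 0.68 for Hsd3b5 (adjusted p = 0.153), −1.88 ± 0.92 for Serpina1e (0.332), −1.05 ± 0.51 for Cyp7b1 (0.327) and −0.91 ± 0.72 for Elovl3 (0.611). The heterozygous and null groups are compared with the same control libraries.

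In the YAP experiment, 1 male-biased gene passed. Cyp7b1 had levels of 7.19 and 6.70 in the wild type control, 5.40 and 6.84 in the heterozygous group and 3.35 and 5.32 in the null group. It fell by 2.61 ± 0.51 in the null group (adjusted p = 0.00478, limma), 6.11-fold lower, with no overlap, where 0.477% of all tested genes were called lower and 7.12% in either direction. The call was lost without control library 1 (−2.36, adjusted p = 0.0744) without null library 1 (−1.63, adjusted p = 0.077) and without the filter on low values (adjusted p = 0.0591). All 6 male-biased genes had negative changes in the null group, where 30.7% of all tested genes did, but the 2 null libraries differed. Hsd3b5 was −0.29 and 2.01 there against 2.45 and 2.90 in the control, Serpina1e was 7.31 and 11.23 against 10.78 and 10.47, and Elovl3 was 1.19 and 3.58 against 2.82 and 4.76. Null library 1 was the low one for each of these genes. Cyp4a12a (3.07 and 6.15 against 6.25 and 6.90) and Cyp2d9 (8.47 and 10.31 against 10.19 and 9.88) had the same order. Their changes were −1.82 ± 0.68 for Hsd3b5 (adjusted p = 0.128), −1.97 ± 0.81 for Cyp4a12a (0.172), −1.41 ± 0.72 for Elovl3 (0.284), −1.36 ± 0.92 for Serpina1e (0.448) and −0.65 ± 0.47 for Cyp2d9 (0.483). Without null library 1 the signs of Serpina1e (0.60) and Cyp2d9 (0.27) turned. Without null library 2, 3 of the 5 became calls, Cyp4a12a at −3.51, Serpina1e at −3.31 and Hsd3b5 at −2.97, where 0.337% of all tested genes were called lower. The lone null library is then assumed to vary like those of the other groups. In the YAP Sox9-heterozygous group none of the 9 genes passed (1.57% of all tested genes did), with Cyp4a12a at −1.23 ± 0.81 and Hsd3b5 at −0.70 ± 0.68.

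**Figure D2:**
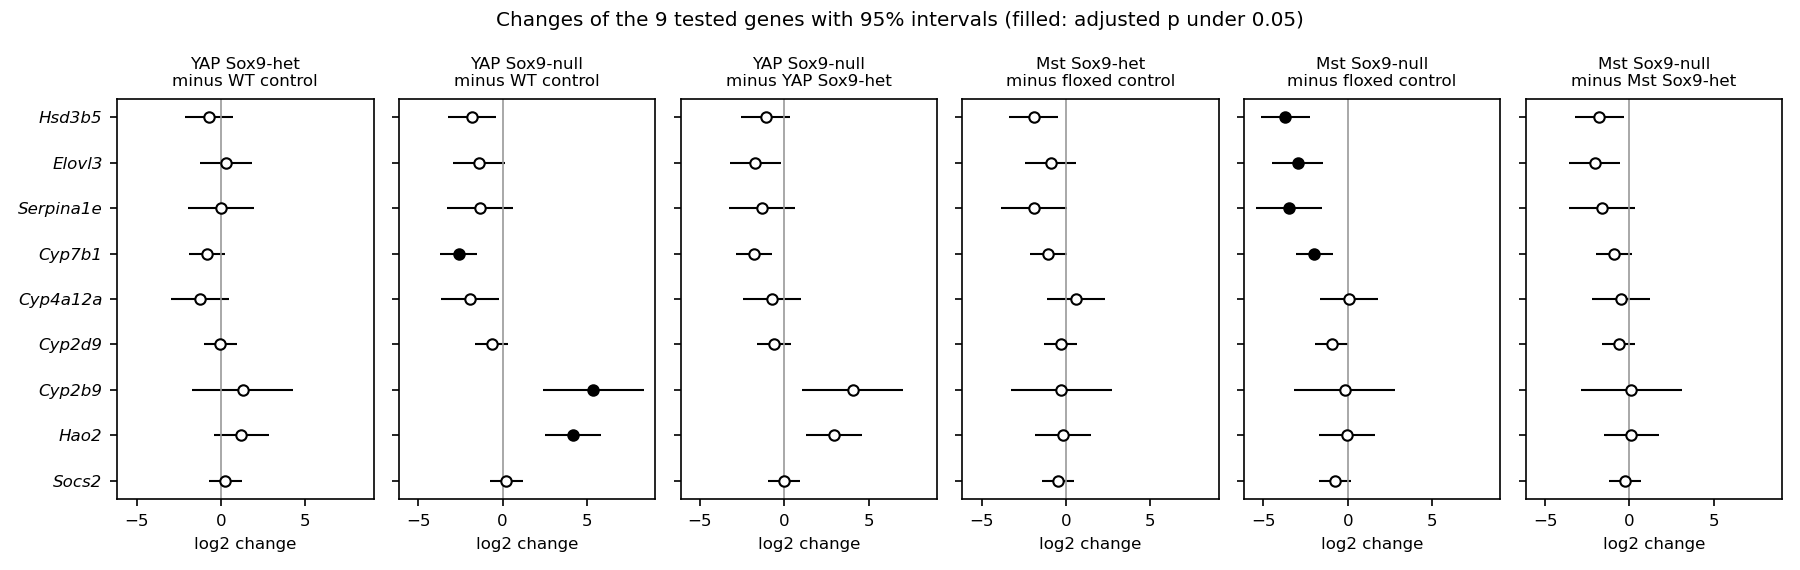
Log2 change (x axis) of the 9 tested genes (y axis) in the 6 comparisons of groups, with 95% intervals; filled points have an adjusted p under 0.05. The filled points are Hsd3b5, Elovl3, Serpina1e and Cyp7b1 below 0 in the Mst Sox9-null group, and Cyp7b1 below 0 with Hao2 and Cyp2b9 above 0 in the YAP Sox9-null group.

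The female-biased genes and Hao2 were high in some YAP-activated libraries and in no Mst-experiment library. Cyp2b9 (chr7:26173411-26210661, plus strand), a cytochrome P450 of female liver, had levels of 0.13 and 1.30 in the wild type control, 4.94 and −0.92 in the heterozygous group and 8.40 and 3.76 in the null group. In the 6 Mst-experiment libraries it lay between 0.25 and 0.98. It rose by 5.37 ± 1.41 in the YAP null group (adjusted p = 0.031, 95% interval 2.37 to 8.36), where 6.64% of all tested genes were called higher. It reached a log2 level of 1 in YAP-experiment libraries only, so its place among the tested genes rests on them, and a fold is not given because its control level is near the floor. The call was lost without control library 1 (4.78, adjusted p = 0.223), without control library 2 (5.95, 0.0884), without null library 1 (3.05, 0.296) and without the filter on low values (adjusted p = 0.170).

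Cyp2b13 (chr7:26061497-26096197, plus strand), the neighbour whose window is printed above, had levels of −1.06 and −1.40 in the wild type control, −0.67 and −1.54 in the YAP heterozygous group and 2.5 and −1.88 in the YAP null group. It was at −1.24 in every Mst-experiment library. It was high in YAP null library 1 only, the library in which Cyp2b9 was also highest, and it was not tested. Hao2 (chr3:98874521-98893239, minus strand), a peroxisomal 2-hydroxyacid oxidase, had levels of −1.40 and −0.03 in the wild type control, 2.05 and −1.06 in the YAP heterozygous group and 3.07 and 3.82 in the YAP null group. Both null libraries lay above all 4 others of that experiment, and the 6 Mst-experiment libraries lay between −1.03 and −0.60. Hao2 rose by 4.16 ± 0.78 in the YAP null group (adjusted p = 0.0034). It entered the tested genes only through YAP-activated libraries, the ones in which it is high, so that its call lends no support beyond these values. With no filter the adjusted p was 0.0322. The call was lost without control library 1 (3.48, adjusted p = 0.0666) and without null library 2 (3.79, 0.0613). In the YAP heterozygous group the changes were 1.21 ± 0.78 for Hao2 (adjusted p = 0.652) and 1.30 ± 1.41 for Cyp2b9 (0.836), and heterozygous library 1 was the high one for both. Without that library the changes were −0.35 and −1.63.

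Socs2 (chr10:95385362-95417180, minus strand), the feedback inhibitor, had levels of 3.09 and 2.49 in the wild type control, 3.64 and 2.48 in the YAP heterozygous group and 3.39 and 2.65 in the YAP null group. In the Mst experiment they were 2.42 and 3.21, 2.82 and 1.87, and 1.99 and 2.14. Each group overlapped its control except the Mst null group, which lay below it (log2 change −0.75 ± 0.45, adjusted p = 0.408). The change in the YAP null group was 0.23 ± 0.45 (adjusted p = 0.840, 95% interval −0.73 to 1.18).

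Sox9 loss itself, null against heterozygous, moved none of the 9 genes past the threshold in either experiment, where 0.169% of all tested genes were called in the YAP experiment and 0.0468% in the Mst experiment. All 6 male-biased genes had negative changes in both comparisons, where 29.5% and 35.9% of all tested genes did. Without YAP null library 1, 4 of these signs turned (Cyp4a12a 0.81, Serpina1e 0.62, Cyp2d9 0.30 and Hsd3b5 0.03), and without Mst null library 1 that of Cyp4a12a did (0.29). The YAP changes nearest the threshold were 2.95 ± 0.78 for Hao2 (adjusted p = 0.262), −1.79 ± 0.51 for Cyp7b1 (0.299) and 4.07 ± 1.41 for Cyp2b9 (0.505). In the Mst experiment they were −2.06 ± 0.72 for Elovl3 (adjusted p = 0.685) and −1.78 ± 0.68 for Hsd3b5 (0.735). In a fit of the 8 activated libraries with a term for the experiment, Elovl3 changed by −1.89 ± 0.49 (adjusted p = 0.269) and Cyp7b1 by −1.35 ± 0.41 (0.387), and none of the 9 passed (0.0655% of all tested genes did), although Elovl3 and Cyp2d9 did with the deviations divided by the factor described below.

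The difference between the experiments was tested directly. In the null groups it was −4.21 for Hao2 (Mst minus YAP, adjusted p = 0.238) and −5.53 for Cyp2b9 (adjusted p = 0.530), and none of the 9 genes passed in the null groups (0.272% of all tested genes did), in the heterozygous groups (0.197%) or for Sox9 loss (0 genes called by limma, with 322 at an unadjusted p under 0.05). The YAP heterozygous libraries are not part of the difference in the null groups. Without library 1 or 2 of that group the Hao2 difference stayed at −4.21 and moved past the threshold, with only the estimate of its spread changed. With deviations divided by that factor the null differences for Hao2 and Cyp2b9 passed. Both genes are among the tested genes only through YAP-experiment libraries, so these differences lend no support beyond the levels given above. For Hsd3b5 the null difference was −1.88 with a 95% interval of −3.92 to 0.17. Because the 2 control means are equal (within 0.05 in 98.9% of genes), the null and heterozygous differences are close to Mst minus YAP in the activated groups alone. The fit takes the controls and the Mst deviations as independent, which they are not, so these p-values are uncertain to that extent.

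**Figure D3:**
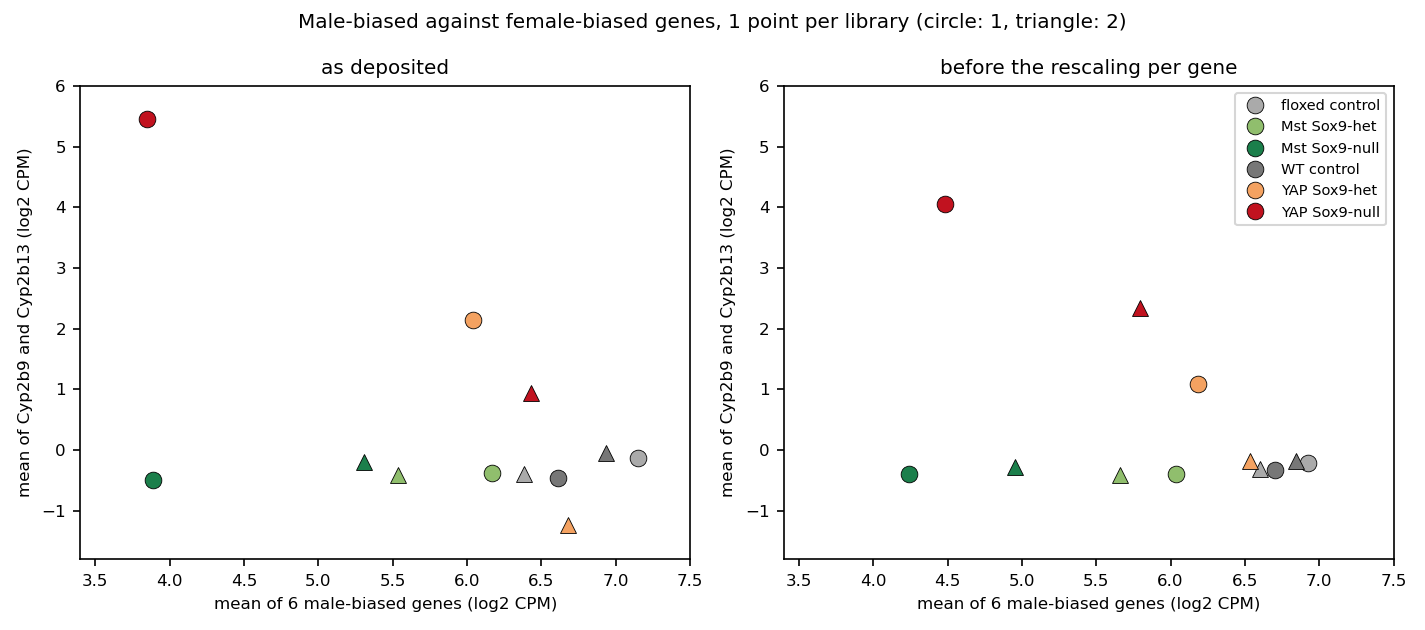
Mean log2 level of Cyp2b9 and Cyp2b13 (y axis, log2 CPM) against the mean of the 6 male-biased genes (x axis, log2 CPM), 1 point for each of the 12 libraries. YAP Sox9-null library 1 is at 3.85 and 5.45, far from the other libraries of its experiment, and the Mst Sox9-null libraries are low on the male-biased axis only.

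The mean log2 level of the 6 male-biased genes was 6.61 and 6.93 in the wild type control, 6.04 and 6.68 in the YAP heterozygous group, and 3.85 and 6.43 in the YAP null group. In the Mst experiment it was 7.15 and 6.38, 6.16 and 5.54, and 3.89 and 5.31. The YAP null libraries thus stood apart from each other, and the Mst null libraries lay below all other Mst libraries. With each gene's deviations divided by the factor described below, the YAP null means were 4.49 and 5.79, closer together and both below the other YAP libraries. Counted by library, 6 of the 6 male-biased genes were below both controls in YAP null library 1 (20.3% of all tested genes were) and 3 of 6 in YAP null library 2 (23.2%). With the deviations divided by the factor it was 6 of 6 in both of these libraries (23.2% and 25.5% of all tested genes). In each Mst null library it was 5 of 6 (22% and 24.8%), with Cyp4a12a the exception in both. In the heterozygous libraries it was 4 and 3 of 6 in the YAP experiment (27.5% and 33.4%) and 4 and 4 of 6 in the Mst experiment (30.5% and 30.2%). In YAP null library 1 the endothelial sum was 232 CPM, against 83.8 CPM in library 2, and the macrophage sums were 44.7 and 41.4 CPM. In the Mst null group the endothelial sums were 257 and 252 CPM, and the macrophage sums were 122 and 49.0 CPM in libraries 1 and 2.

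The signalling genes above STAT5 were measured as a list of 17, of which 16 were tested. None passed in any of the 6 comparisons. The receptor Ghr had levels of 9.33 and 9.46 in the wild type control, 8.99 and 9.15 in the YAP null group, 9.43 and 9.36 in the floxed control and 8.84 and 8.74 in the Mst null group, where its change was −0.60 ± 0.26 (adjusted p = 0.195). Stat5b lay between 6.18 and 7.09 in all libraries, and its largest change against a control was 0.34 ± 0.27 (adjusted p = 0.612). Jak2 and Stat5a likewise did not pass. Prlr, another gene of this list, changed by −1.44 ± 0.59 in the Mst heterozygous group (adjusted p = 0.231, limma) and by −1.42 ± 0.59 in the Mst null group (0.188). Its libraries in both groups lay below the control (12.8% of all tested genes did so in the null group). In the YAP experiment its changes were −0.98 and −0.04, and the libraries overlapped. In the feedback list, 6 of 7 genes were tested, and Cish changed by −0.08 ± 0.42 in the YAP null group. Socs3 rose in the Mst null group by 1.57 ± 0.33 (5.59 and 4.98 against 3.53 and 3.88, adjusted p = 0.0066, limma). It was the 1 call among the 6 in that group, where 6.88% of all tested genes were called higher. In the IGF list, 6 of 8 were tested and none passed. Igf1 changed by −1.04 ± 0.33 in the YAP null group (7.78 and 8.69 against 9.55 and 9.01; adjusted p = 0.0742) and by −0.54 ± 0.33 in the Mst null group (adjusted p = 0.419).

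Among 18 tested regulators of sex-biased genes, Cux2, a repressor of male-biased genes that is high in female liver, rose in the YAP null group by 2.46 ± 0.53 (1.99 and 2.69 against −0.10 and −0.13, adjusted p = 0.00922), and it changed by 0.54 ± 0.53 in the Mst null group. It was the 1 call among the 18 in the YAP null group, where 6.64% of all tested genes were called higher. The 2 YAP null libraries, in which Cux2 is high, meet the filter by themselves and the controls lie under it. Its call therefore lends no support beyond these values. Bcl6, a repressor of female-biased genes, rose in the Mst heterozygous group by 2.60 ± 0.63 (7.96 and 6.68 against 5.12 and 4.32; adjusted p = 0.0284), but its change in the Mst null group was 1.13 ± 0.63 (adjusted p = 0.358). The nuclear receptor Nr1i3 fell in the Mst heterozygous group by 1.82 ± 0.44 (adjusted p = 0.0276), where 4.25% of all tested genes were called in either direction. Hnf4a did not pass in any comparison.

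Of 26 further male-biased liver genes, 20 were tested. In the YAP null group 18 of the 20 had negative changes, where 30.7% of all tested genes did (median −0.69 against 0.21), and none passed. In null library 1, 17 of the 20 were below both controls (20.3% of all tested genes were), with a median difference of −1.36. In null library 2, 9 of the 20 were below both (23.2%) and 5 above both (54.6%), with a median difference of −0.32. With the deviations divided by the factor described below, 17 and 15 of the 20 were below both controls (23.2% and 25.5%). In the Mst null group, where 0.88% of all tested genes were called lower, 4 of the 20 fell: Susd4 by 2.94 ± 0.68 (adjusted p = 0.0139), Cspg5 by 2.95 ± 0.56 (0.00352), Cyp2d40 by 1.64 ± 0.45 (0.0362) and Mup3 by 1.40 ± 0.41 (0.0489). Susd4 and Cspg5 also fell in the Mst heterozygous group, by 2.62 ± 0.68 (adjusted p = 0.042, limma) and 2.12 ± 0.56 (0.044). Mup3, a major urinary protein gene, had levels of 10.41 and 10.38 in the floxed control against 8.58 and 9.41 in the Mst null group. Of 18 tested further female-biased genes, 12 had positive and 6 negative changes in the YAP null group (median 1.12 against 0.21), where 30.7% of all tested genes had negative ones. In the Mst null group 11 were positive and 7 negative (median 0.42 against 0.17). In the YAP null group 3 of the 18 rose (6.64% of all tested genes were called higher), Cd36 by 3.64 ± 0.46, Cyp39a1 by 2.99 ± 0.26 and Fmo2 by 2.27 ± 0.44. Ntrk2 fell there by 1.99 ± 0.51 (adjusted p = 0.0272, limma). In the Mst null group, where 6.88% of all tested genes were called higher, Cd36 rose by 3.11 ± 0.46 and Ntrk2 by 4.38 ± 0.51, while Cyp2c69 fell by 4.55 ± 1.19 (adjusted p = 0.0261). Several of these rises were also called in heterozygous groups. Cd36 and Cyp39a1 rose in the YAP heterozygous group by 2.34 ± 0.46 and 1.69 ± 0.26 (1.57% of all tested genes were called). Cd36 and Ntrk2 rose in the Mst heterozygous group by 2.94 ± 0.46 and 4.77 ± 0.51 (4.25%). Cd36 is a fatty acid transporter that endothelial cells also express. The paralog Elovl1 rose in the YAP null group by 0.94 ± 0.22 (adjusted p = 0.0166) and in the Mst null group by 0.77 ± 0.22 (adjusted p = 0.0453), the direction opposite to that of Elovl3. Elovl1 rose in the Mst heterozygous group too, by 0.84 ± 0.22 (adjusted p = 0.0441, limma). The bile acid enzyme Cyp7a1 fell in the heterozygous group of each experiment and was not called in either null group. It fell by 1.56 ± 0.35 in the YAP experiment (adjusted p = 0.033, limma), where 1.57% of all tested genes were called. In the Mst experiment it fell by 1.80 ± 0.35 (adjusted p = 0.00608, limma), where 4.25% were.

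**Figure D4:**
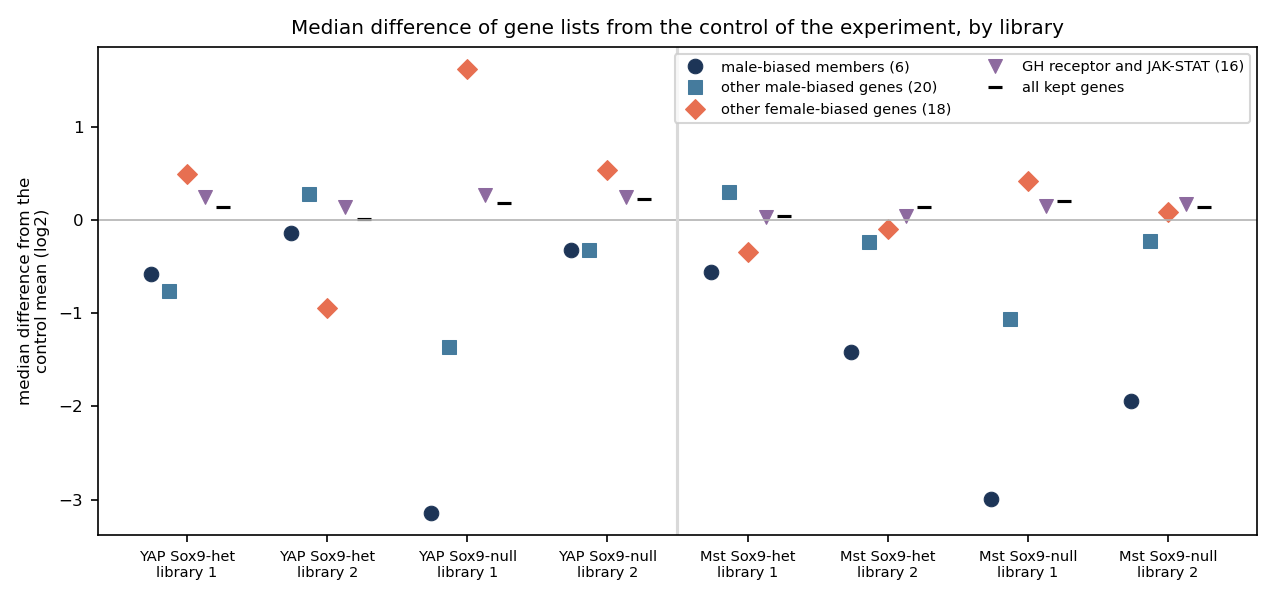
Median difference from the control mean (y axis, log2) of each gene list in each of the 8 activated libraries (x axis). The median of the male-biased list is lowest in YAP Sox9-null library 1 (−3.14) and Mst Sox9-null library 1 (−2.99), while the median of the signalling list reaches 0.27 at most. Single signalling genes lie between −2.02 and 1.02.

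In the deposited table the deviations of each gene from its group means appear to have been multiplied by 1 factor, with a median of 1.60 over the tested genes. The factor was inferred from a common step of each gene's deviations, on the assumption that the step was the same for all genes before it. Its size, and each call on that scale, rests on this assumption. The factor was larger for several members, 3.06 for Cyp2d9, 2.73 for Cyp4a12a and 2.65 for Cyp2b9 against 1.26 for Socs2, and it widens the spread that the tests use. With each gene's deviations divided by its factor, the YAP null group called 7 of the 9 genes (Cyp7b1, Hsd3b5, Elovl3, Cyp4a12a and Cyp2d9 lower, Hao2 and Cyp2b9 higher), where 28.7% of all tested genes were then called. The Mst null group called 5 (the 4 above and Cyp2d9), where 27.7% were. The Mst heterozygous group called Hsd3b5 and Serpina1e, where 21.3% were. For Sox9 loss, Cyp2b9, Hao2 and Elovl3 passed in the YAP experiment (5.61% of all tested genes did) and Elovl3 in the Mst experiment (2.6%). Over both experiments Elovl3 (adjusted p = 0.0151) and Cyp2d9 (0.0495) passed (2.28%). The difference between the experiments passed for Hao2 (adjusted p = 0.00254) and Cyp2b9 (0.0102) in the null groups (6.05%) and for Hao2 in Sox9 loss (adjusted p = 0.0416, 1.05%). Both genes are among the tested genes only through YAP-experiment libraries, so none of their calls on this scale lends support beyond their levels. On that scale Cyp2b9 had levels of 3.12 and 0.91 in the YAP heterozygous group and 6.96 and 5.21 in the YAP null group.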

How the data were processed

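RNA of sorted mouse hepatocytes was measured with the Ion AmpliSeq Transcriptome Mouse Gene Expression Panel, per the labels' protocols, in 12 libraries of 6 groups. The deposited table holds log2 CPM values (counts scaled to the library total) for 16116 genes, as the authors deposited them; aligner, counter and build: not given in the sources used here. A pair of features was found in the values and is stated by no source used here. The control means of both experiments are equal, and each gene's deviations from its group means share 1 common step (found for 10671 of 10681 tested genes). The step was read as a factor (5th to 95th percentile 0.967 to 3.21) on deviations that had 1 fixed step for all genes, which is an assumption. Under it the factor raises the median SD within groups from 0.183 to 0.288. The depth behind the values is not known.

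Genes reaching log2 1 in 2 or more libraries were fitted with limma 3.58.1 in R 4.3.3, as group means over all 12 libraries with a trended prior variance, and p-values were Benjamini-Hochberg adjusted over all tested genes at 0.05 (two-sided). Sox9 loss over both experiments used the 8 activated libraries with the experiment as a term. Errors of changes are SE. The fit was run on simulated data of independent normal values. These lack the equal control means and the Mst deviations that sum to about 0, so the simulation does not show how the fit behaves with them. The members and lists were chosen with earlier results of these data known. Named genes are the members, the genes of each list called in a comparison of groups (at most 4 by size per list and direction), fixed signalling, sex and target genes, and the 5 genes most and least like each profile, of which the text gives some and 1 is not reported here. Alternatives were other filters, quantile normalization, equalised library medians, a fit of 1 experiment, no trend, a replicate block, each library left out, and deviations divided by the factor. Promoters came from RefSeq (GRCm38.p6) and gene positions from GENCODE M21 (GRCm38).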

Additional observations from a re-analysis of the deposited data

How the results depend on the processing

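In 2025 of 2220 values recomputed under an alternative, direction and side of the threshold were kept (a count within 1.5 times). The sign turned in 74, none of them past the threshold in either setting. Without a filter on low values the counts of genes called were 72 (YAP heterozygous), 369 (YAP null), 5 (YAP Sox9 loss), 189 (Mst heterozygous), 416 (Mst null), 2 (Mst Sox9 loss), 3 and 8 (differences between experiments, heterozygous and null) and 1 (Sox9 loss over both), and 1 member each was called in the YAP null (Hao2) and Mst null (Hsd3b5) groups; more genes are tested there. The YAP null count, 760, was 449 after quantile normalization, 484 with library medians equalised and 483 in the 6 libraries of the experiment, where the Sox9 loss counts were 9 (YAP) and 2 (Mst). Without a trend the counts were 6 (YAP Sox9 loss), 3 and 7 (differences, heterozygous and null), with 2 members in the Mst null group. A filter at log2 3 gave 17 genes for Sox9 loss over both and left Hsd3b5 untested. Dividing by the factor gave 1350, 3070, 599, 2272, 2960, 278, 779, 646, 112 and 243 genes (YAP heterozygous, null and loss, Mst heterozygous, null and loss, the 3 differences, and loss over both) and 7, 3, 2, 5 and 1 members (YAP null, YAP loss, Mst heterozygous, Mst null, Mst loss), and also 2, 1 and 2 members (null difference, loss difference, loss over both). Cyp2b9 in the YAP null group missed the threshold after quantile normalization (adjusted p = 0.0679), with medians equalised (0.0543), in its own experiment (0.0752) and without a trend (0.0706); without a trend Cyp7b1 (0.0651) and Serpina1e (0.0675) also missed it in the Mst null group. The cause was not tested.

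Leaving out 1 library gave 92 to 291 genes (YAP heterozygous), 328 to 1003 (YAP null), 4 to 128 (YAP loss), 189 to 524 (Mst heterozygous), 348 to 981 (Mst null), 3 to 20 (Mst loss), 0 to 39, 14 to 38 and 0 to 18 (differences, heterozygous, null and loss) and 6 to 10 (loss over both). Members called ranged from 0 to 5 (YAP null), 1 to 4 (Mst null), 0 to 1 (YAP heterozygous), 0 to 2 (YAP loss) and 0 to 1 (null difference, Hao2 without either YAP heterozygous library).

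With library medians equalised the turned changes were −0.022 for Cyp2b9 (Mst Sox9 loss), 0.011 for Cyp2d9 (the Sox9 loss difference), −0.15 for Cyp4a12a (Mst null against control), −0.017 for Hao2 (Mst Sox9 loss) and −0.034 for Socs2 (YAP null against control). After quantile normalization the turned changes were −0.0062 for Cyp2b9 (Mst Sox9 loss), −0.10 for Cyp4a12a (Mst null against control) and −0.19 for Socs2 (YAP null against control). The log2 changes whose sign turned when 1 library was left out ranged as follows. For YAP heterozygous against control, Cyp2b9 ranged from −1.63 to 4.22, Cyp2d9 from −0.18 to 0.12, Elovl3 from −0.66 to 1.28, Hao2 from −0.35 to 2.77, Serpina1e from −0.45 to 0.42 and Socs2 from −0.32 to 0.85. For YAP null against control, Cyp2d9 ranged from −1.56 to 0.27, Serpina1e from −3.31 to 0.60 and Socs2 from −0.14 to 0.60. For YAP Sox9 loss, Cyp2d9 ranged from −1.53 to 0.30, Cyp4a12a from −2.28 to 0.81, Hsd3b5 from −2.26 to 0.035, Serpina1e from −3.30 to 0.62 and Socs2 from −0.62 to 0.54. For Mst heterozygous against control, Cyp2d9 ranged from −0.66 to 0.042, Cyp4a12a from −0.37 to 1.55 and Socs2 from −0.94 to 0.0098. For Mst null against control, Cyp2b9 ranged from −0.47 to 0.14, Cyp4a12a from −0.87 to 1.05 and Hao2 from −0.22 to 0.12. For Mst Sox9 loss, Cyp2b9 ranged from −0.19 to 0.41, Cyp4a12a from −1.29 to 0.29, Hao2 from −0.056 to 0.29 and Socs2 from −0.76 to 0.20. For the heterozygous difference, Cyp2b9 ranged from −4.50 to 1.36, Cyp2d9 from −0.63 to 0.073, Cyp7b1 from −0.95 to 0.48 and Hao2 from −2.93 to 0.19. For the null difference, Cyp2d9 ranged from −1.22 to 0.61 and Cyp7b1 from −0.35 to 1.62. For the Sox9 loss difference, Cyp2d9 ranged from −0.94 to 0.89, Cyp4a12a from −1.31 to 1.78, Cyp7b1 from −0.11 to 1.85, Elovl3 from −1.54 to 0.86, Hsd3b5 from −1.81 to 0.48, Serpina1e from −2.24 to 1.67 and Socs2 from −0.82 to 0.34. For Sox9 loss over both, Cyp4a12a ranged from −1.21 to 0.023 and Socs2 from −0.42 to 0.055.

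No label says that the library numbers pair the libraries. Same-numbered deviations correlated at −0.117 to −0.0627 in the YAP experiment, and at −0.644 to −0.315 in the Mst experiment, where they sum to about 0 over the 3 groups as deposited. With the replicate block the counts were 177 (YAP heterozygous), 720 (YAP null) and 802 (Mst null), and 3 for the difference in Sox9 loss; no member gained or lost a call. With the numbers crossed, an alternative chosen after seeing the data, the counts were 217 (YAP heterozygous), 452 (Mst heterozygous), 781 (Mst null) and 6 (Mst loss).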

Other observations

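The genes whose levels followed the mean of the 6 male-biased genes most closely over the 12 libraries, among the 6515 genes with a mean log2 level of at least 4, were Ces3b (Pearson r = 0.938), the urea cycle arginase Arg1 (0.911), the apolipoprotein Apoc3 (0.901), the coagulation factor F11 (0.882) and Zfand2b (0.866). Among the lowest were Cd74 (−0.908), Vps37c (−0.895), Slc16a5 (−0.888) and Flot1 (−0.879). For the mean of Cyp2b9 and Cyp2b13 the highest was Fmo2 (0.869) and the lowest the complement gene C6 (−0.956). These are descriptions over libraries that share groups and an amplicon panel, and the female-biased values rest largely on YAP Sox9-null library 1.

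The acute phase list had its largest median difference, 1.72, in YAP heterozygous library 2. There 12 of 13 genes were above both controls (36% of all tested genes were). In library 1 of that group 2 of 13 were (48%). Lcn2 rose by 2.27 ± 0.52 (adjusted p = 0.0389, limma) and Steap4 by 2.33 ± 0.51 (adjusted p = 0.0295) in that group, where 1.57% of all tested genes were called. Orm3, of the same list, rose in the Mst heterozygous group by 2.14 ± 0.53 (adjusted p = 0.031, limma), where 4.25% were called. In the Mst null group it rose by 2.45 ± 0.53 (adjusted p = 0.00853, limma), where 6.88% were called higher. The list of 13 hepatocyte secreted proteins had no call in any of the 6 comparisons.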
